A study of Mus musculus with 26 samples.

Results

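The comparison described here asks what the chemokine CXCL12 adds to cultured mouse pre-B cells that already receive interleukin 7 (IL-7). It rests on the RNA count columns of 2 libraries labelled IL-7 with CXCL12 and of 2 libraries labelled IL-7 alone, which are 4 of the 26 samples of the series, of which 18 are RNA libraries in 9 groups. The series addresses signalling through the CXCL12 receptor CXCR4 in late B-cell development. Both groups are labelled pre-B cells, and the labels give no genotype, strain, age, sex, dose or time for them. Further groups that enter the text are cultures without IL-7, either alone, with CXCL12, or with CXCL12 and ERK inhibitor II. CXCR4-/- cultures without IL-7, alone or with CXCL12, enter as well. So do sorted, uncultured pre-B cells, labelled wild-type or CXCR4-/-. The labels do not state whether both libraries of a group stem from different animals or cultures. The p-values reflect how far libraries vary within groups, over all 18 RNA libraries and not only the 4 compared. That variation may be technical.

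IL-7 is the growth factor of pro-B and large pre-B cells. It acts through JAK kinases and STAT5 to keep the cells cycling and to hold back recombination of the immunoglobulin light chain genes. CXCL12 is made by bone marrow stroma, and its receptor CXCR4 is a G-protein-coupled receptor that signals through Gi proteins, Rac and PI3 kinase to migration and through ERK to transcription. Withdrawal of IL-7 together with CXCR4 signalling is thought to move cells out of the cycle and into light chain recombination. Adding CXCL12 while IL-7 stays present separates the chemokine from the loss of the growth factor.

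Before any difference is read, the libraries on both sides have to be set beside each other, because they differed in features that the labels do not name. Levels are given as CPM, the count of a gene scaled to the library's TMM-normalised total. They come from 46859789 and 50235192 counts in IL-7 with CXCL12 and 44244785 and 44727809 counts in IL-7 alone. Xist, the RNA of the inactive X chromosome, stood at 1251 and 1520 CPM with both factors, against 0.615 and 0.647 CPM with IL-7 alone, while the Y-linked gene Ddx3y stood at 7.0 and 7.02 CPM, against 123 and 125 CPM. Both pairs were far apart in each gene, in opposite directions. Gapdh, a glycolytic enzyme with many processed pseudogenes, stood at 1730 and 1519 CPM, against 2.18 and 2.89 CPM. The ERK inhibitor cultures shared both features with IL-7 with CXCL12, at 1438 and 1454 CPM of Xist and 1399 and 1556 CPM of Gapdh. High Gapdh was found in no further group, whereas Xist was low in all further cultures but not in the libraries of sorted, uncultured cells. Condition and set of libraries thus cannot be told apart in the comparison, and values of the ERK inhibitor cultures, which had no IL-7, are given beside the results as values from within the same set.

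**Figure D1:**
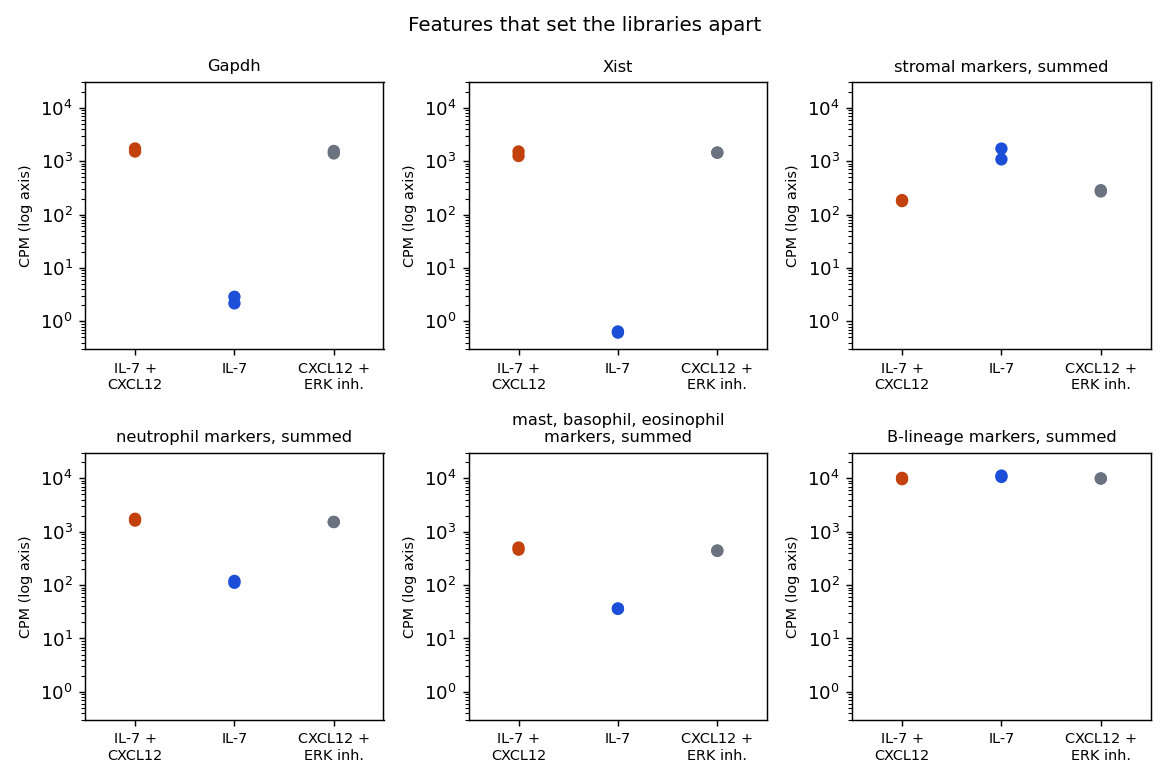
Level in each library, in CPM on a log axis, of Gapdh, of Xist and of 4 summed marker lists, for IL-7 with CXCL12, IL-7 alone, and CXCL12 with ERK inhibitor without IL-7 (1 point per library). Gapdh, Xist, neutrophil markers and mast cell, basophil and eosinophil markers were high in both groups on the outer sides and low with IL-7 alone, stromal markers were highest with IL-7 alone, and B-lineage markers lay at about the same height in all 6 libraries.

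Of 14862 genes tested, 4720 were called by edgeR's quasi-likelihood test (Benjamini-Hochberg adjusted p under 0.05), which is 31.8% of them. With CXCL12, 2271 genes rose (15.3%) and 2449 fell (16.5%). A change of at least 2-fold was found for 1319 of those that rose (8.87% of genes tested) and 1278 of those that fell (8.6%). The median log2 change over all genes was -0.03, and the middle range between the quartiles ran from -0.38 to 0.30. Leaving out any 1 of the 4 libraries left 3055 to 3168 calls, with the fewest without replicate 1 of IL-7 alone. Genes outside the classes set apart in the next paragraphs gave 1664 rises and 2377 falls among 13820 tested, with a median of -0.05. Their calls of at least 2-fold lay mostly in genes that the CXCR4-/- cultures hardly expressed: 465 rose and 881 fell of 3411 genes under 1 CPM there, against 171 and 113 of 8367 genes at 10 CPM or more.

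Genes with near-identical copies elsewhere in the genome were the first class set apart, because reads that match several places can be kept or dropped, depending on the counting. Of 339 such genes tested, 205 were higher and 18 lower with CXCL12, with a median log2 change of 1.01. They took up 14.9% and 14.1% of all counts with both factors, against 5.73% and 5.74% with IL-7 alone, and 13.4% and 13.6% in the ERK inhibitor cultures. Of 87 ribosomal protein genes, 71 were higher and 2 lower, with a median of 2.81. Rps29 of the small ribosomal subunit stood at 871 and 743 CPM, against 0.593 and 0.345 CPM, a log2 change of 10.74 ± 0.42 (SE; adjusted p = 4.1e-09). Rpl24 of the large subunit stood at 530.5 and 538 CPM, against 0.703 and 0.647 CPM (log2 change 9.62 ± 0.33). Rpl23a and Rps23 behaved in the same way, with log2 changes of 9.57 and 9.51, and with Rps29, Rpl24 and Xist (11.09) they were the 5 highest rises among genes whose mean log2 CPM was 3 or more. Within the set that shares high Gapdh, Rps29 differed by 0.25 ± 0.26 on the log2 scale between IL-7 with CXCL12 and the ERK inhibitor cultures, with an adjusted p of 0.67.

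A second class was defined after the data were seen, from libraries outside the comparison: genes at least 2-fold higher in both ERK inhibitor libraries than in all 12 RNA libraries of the 6 further groups. Of 413 such genes, here called library-set genes, 368 were higher with CXCL12 and 1 was lower, with a median log2 change of 3.05. The class also holds 3 genes at least 2-fold lower in both ERK inhibitor libraries than in those 12, and all 3 were lower with CXCL12. Immunoglobulin gene segments were also set apart. Of 265 tested, 68 were higher and 20 lower, with a median of 0.47.

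Markers of other cells moved in both directions, although the RNA came from B cells sorted by flow cytometry, per the labels' protocols. Stromal and endothelial genes were lower with CXCL12 in 22 of 26 cases and higher in 1, with a median log2 change of -4.13. Their summed level was 187 and 179 CPM with both factors, against 1082 and 1722 CPM with IL-7 alone, 271 and 286 CPM in the ERK inhibitor cultures and 185 to 201 CPM in the CXCR4-/- cultures. Hspg2, which encodes the basement membrane protein perlecan, stood at 0.757 and 1.06 CPM, against 59.3 and 87.8 CPM (log2 change -6.33 ± 0.34, adjusted p = 5.7e-08). The matrix and collagen genes Bgn, Fbln2, Aebp1, Col1a2 and Serpinh1 completed the 6 steepest falls at that level, with log2 changes between -6.20 and -5.66. Fn1, Col1a2, Pecam1 and Bgn were the most abundant stromal or endothelial members, and of these 4 the endothelial and leukocyte adhesion gene Pecam1 differed least, at 79.7 and 75.3 CPM, against 101 and 93.2 CPM; its call (-0.32 ± 0.09, adjusted p = 0.02) was lost without replicate 2 of IL-7 with CXCL12 (adjusted p = 0.086) or replicate 1 of IL-7 alone (0.15).

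Myeloid markers went the other way. Of 18 neutrophil granule genes, 16 were higher and 0 lower, with a median log2 change of 3.70, and their summed level was 1746 and 1613 CPM with both factors, against 110.5 and 119.7 CPM with IL-7 alone, 1513 and 1531 CPM in the ERK inhibitor cultures and 0.206 to 1.18 CPM in the CXCR4-/- cultures. S100a9, a subunit of the calprotectin complex of neutrophils, stood at 486 and 440.4 CPM, against 27.5 and 29.2 CPM (log2 change 4.03 ± 0.60). Of 18 mast cell, basophil and eosinophil genes, 16 were higher and 1 lower, with a median of 4.24 and sums of 505 and 461 CPM, against 36.6 and 35.8 CPM. The basophil proteases Prss34 and Mcpt8 led them by level, at 142 and 119.6 CPM against 3.34 and 4.25 CPM for Prss34 and 118 and 105 CPM against 1.93 and 1.77 CPM for Mcpt8. Of 27 monocyte and macrophage genes, 16 were higher and 1 lower, with sums of 1661 and 1611 CPM, against 740.0 and 1002 CPM, and the ERK inhibitor cultures lay above both at 5538 and 5563 CPM; 10 of the 27 were higher without replicate 1 of IL-7 alone. Megakaryocyte genes were higher in 7 of 8 cases, dendritic cell genes in 9 of 16 with 2 lower, and T and NK cell genes in 16 of 20 with 1 lower. In such bulk libraries, a smaller number of cells of a type and less RNA per cell cannot be told apart, and the part of these markers in the results that follow was not tested.

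The B-lineage label held in all 4 libraries. The 13 defining B-lineage markers summed to 10190 and 9634 CPM with both factors, against 11241 and 10602 CPM with IL-7 alone. Of the 13, 2 were higher and 4 lower with CXCL12, with a median log2 change of -0.28. Ighm, the immunoglobulin mu heavy chain of the pre-B receptor, fell to 3145 and 2887 CPM, against 4064 and 3828 CPM (-0.39 ± 0.08, adjusted p = 0.0034). Cd24a, a surface glycoprotein of immature B cells, rose to 2697 and 2730 CPM, against 1899 and 1833 CPM (0.54 ± 0.12, adjusted p = 0.0056). The signalling chain Cd79a stood at 915 and 853 CPM, against 890.2 and 833 CPM, values that overlapped between the groups.

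Of 25 regulators of B-cell development and signalling, 3 rose, 7 fell and 15 were not called. Cxcr4 itself stood at 288 and 266 CPM with both factors, against 113 and 112 CPM with IL-7 alone, a log2 change of 1.29 ± 0.66 with an adjusted p of 0.16. Both libraries with CXCL12 were above both without it, the gene was not called, and the ERK inhibitor cultures stood at 309 and 322 CPM. Rag2, a subunit of the recombinase that cuts immunoglobulin genes, rose to 26.7 and 25.2 CPM, against 17.3 and 15.8 CPM (0.65 ± 0.08, adjusted p = 5.1e-05). Its partner Rag1 stood at 82 and 81.4 CPM, against 106 and 92.9 CPM, and was not called (-0.28 ± 0.25, adjusted p = 0.43). Il7r, the alpha chain of the IL-7 receptor, rose to 127 and 137 CPM, against 97.5 and 91.7 CPM (0.48 ± 0.11, adjusted p = 0.0062). That call was lost without replicate 2 of IL-7 with CXCL12 (adjusted p = 0.086) and without replicate 2 of IL-7 alone (0.058). Within the set with high Gapdh, Rag2 and Il7r were lower with both factors than in the ERK inhibitor cultures, at 58.7 and 55.9 CPM for Rag2 (-1.14 ± 0.08, adjusted p = 9.1e-06) and 275 and 259 CPM for Il7r (-1.02 ± 0.11, adjusted p = 0.00016).

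**Figure D2:**
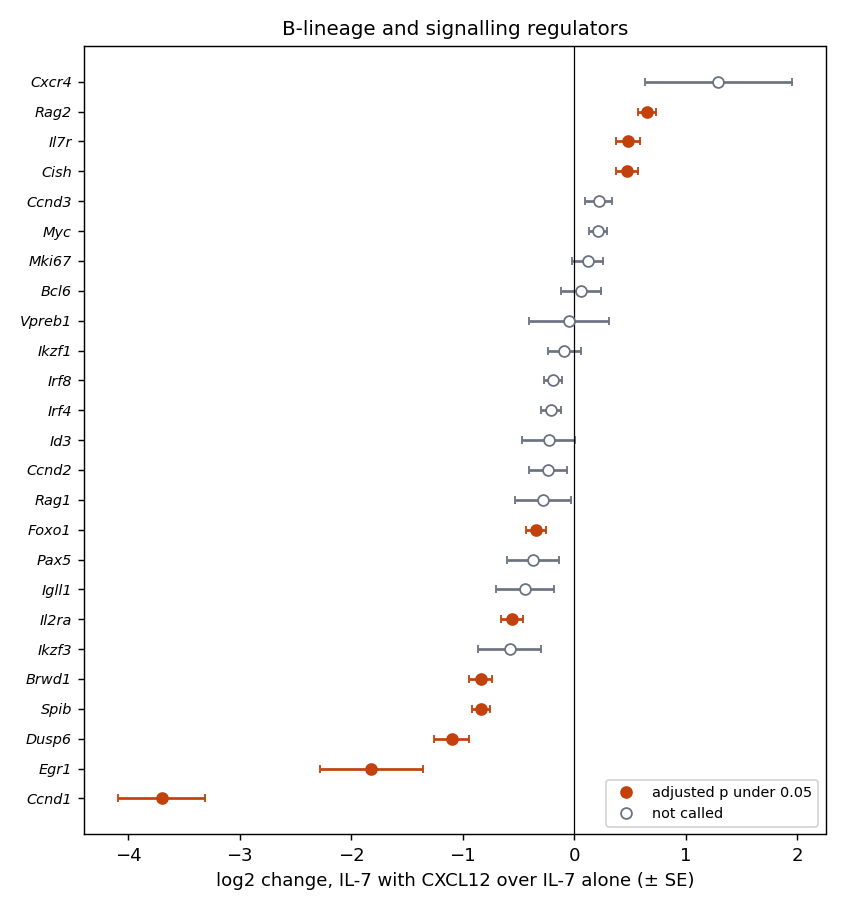
Log2 change of 25 regulators, IL-7 with CXCL12 over IL-7 alone, with 1 SE to each side; filled points were called at an adjusted p under 0.05 and open points were not. Rag2, Il7r and Cish lie to the right among the called genes, and Ccnd1, Egr1, Dusp6, Spib, Brwd1, Il2ra and Foxo1 to the left, while the widest bar to the right is that of Cxcr4.

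The regulators that fell included genes of the pre-B to immature B transition. Spib, an ETS-family transcription factor of the B lineage, fell to 512 and 488 CPM, against 918 and 872 CPM (-0.84 ± 0.08, adjusted p = 9.4e-06). Brwd1, a chromatin reader that opens the kappa locus in late pre-B cells, fell to 8.33 and 9.67 CPM, against 16.6 and 15.5 CPM (-0.84 ± 0.10, adjusted p = 7.1e-05). In both genes the libraries with CXCL12 lay well below those without it and the pairs were tight. In the ERK inhibitor cultures Spib stood at 423 and 444 CPM and Brwd1 at 11.4 and 11.1 CPM. Neither was called between IL-7 with CXCL12 and those cultures (adjusted p = 0.15 and 0.075). Foxo1, a transcription factor that drives Rag expression when PI3 kinase signalling is low, fell to 219.5 and 225 CPM, against 287 and 275 CPM (-0.34 ± 0.09, adjusted p = 0.012), a call that was lost without replicate 1 of IL-7 alone (adjusted p = 0.089). Il2ra, the CD25 marker of pre-B cells, fell to 25.7 and 25.9 CPM, against 40.1 and 35.9 CPM (-0.56 ± 0.10, adjusted p = 0.00095). In the ERK inhibitor cultures Foxo1 stood at 246 and 243 CPM and was not called (adjusted p = 0.44). Il2ra stood at 17.2 and 19 CPM there and was higher with both factors (0.51 ± 0.10, adjusted p = 0.0059). The transcription factor genes Irf4, Irf8, Pax5, Ikzf1 and Ikzf3, which act in the same transition, had log2 changes of -0.21, -0.19, -0.37, -0.09 and -0.58, and none of these genes was called. Pax5 stood at 205 and 205 CPM, against 270 and 259 CPM, and Ikzf3 at 246 and 276 CPM, against 404 and 376 CPM. In neither gene did the pairs overlap. The shared spread also rests on the CXCR4-/- cultures, which ran from 199 to 454 CPM of Pax5 and from 75 to 344 CPM of Ikzf3. A missing call thus does not show that a gene was unchanged. The surrogate light chain genes Vpreb1 and Igll1 were also not called, at -0.05 and -0.44.

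For the lists that follow, the share over all genes tested was 15.3% higher and 16.5% lower. The pathway of the receptor itself showed no common direction. Among 37 genes of CXCR4 and its proximal signalling, 6 were higher and 10 lower, with a median log2 change of -0.13 beside -0.03 over all genes. Leaving out any 1 of the 4 libraries left 3 to 6 higher and 3 to 9 lower, and no lower count passed 5 except without replicate 1 of IL-7 with CXCL12. The 4 members with the smallest p were Rap1a, Gng2, Adrbk2 and Ptk2. Rap1a, a small GTPase of integrin activation, and Gng2, a G-protein gamma subunit, belong to the genes set apart, with log2 changes of 1.68 and -1.10. Adrbk2, a kinase that desensitises G-protein-coupled receptors, rose to 4.56 and 4.81 CPM, against 0.461 and 0.711 CPM (2.99 ± 0.39, adjusted p = 9.0e-05). Ptk2, the focal adhesion kinase, fell to 4.24 and 3.51 CPM, against 9.43 and 11.6 CPM (-1.44 ± 0.22, adjusted p = 0.00032). The pairs of both genes did not overlap, and Adrbk2 was nearly absent from the CXCR4-/- cultures, at a mean of 0.0769 CPM. In the ERK inhibitor cultures Adrbk2 stood at 6.4 and 6.85 CPM and Ptk2 at 5.19 and 5.27 CPM. Neither was called between IL-7 with CXCL12 and those cultures.

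Genes of the IL-7 receptor, STAT5 and its targets rose more often than they fell. Of 25, 9 rose and 2 fell, with a median log2 change of 0.13. Without any 1 of the 4 libraries, 5 or 6 rose and 1 fell. Gimap3 and Gimap4, GTPases of lymphocyte survival, rose to 19.2 and 17.8 CPM, against 7.16 and 7.42 CPM, for Gimap3 (1.34 ± 0.14, adjusted p = 1.6e-05) and to 81.5 and 80.5 CPM, against 45.8 and 41.4 CPM, for Gimap4 (0.89 ± 0.11, adjusted p = 5.0e-05). Pim2, a survival kinase, rose to 38.4 and 34 CPM, against 17.4 and 16.7 CPM (1.08 ± 0.12, adjusted p = 2.6e-05). In all 3 genes both libraries with CXCL12 lay above both without it, and the ERK inhibitor cultures lay above IL-7 alone as well, at 67.2 and 68.4 CPM of Gimap4. Cish, a feedback inhibitor that STAT5 switches on directly, rose to 108 and 104 CPM, against 79 and 73.6 CPM (0.47 ± 0.10, adjusted p = 0.0025). Cish and Socs2, another STAT5-induced feedback gene, also stood above the ERK inhibitor cultures, which had no IL-7, with log2 differences of 1.22 ± 0.10 (adjusted p = 1.6e-05) and 0.84 ± 0.15 (adjusted p = 0.0036), the second of which was lost without replicate 2 of the ERK inhibitor cultures (0.054). Socs2 stood at 342 and 387 CPM with both factors, against 258 and 246 CPM with IL-7 alone (0.53 ± 0.15, adjusted p = 0.017), a call lost without any 1 of the 4 libraries (adjusted p of 0.05 to 0.16).

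Immediate early genes and feedback inhibitors of the ERK pathway were lower on balance. Of 36, 4 rose and 13 fell, with a median log2 change of -0.40. Without any 1 of the 4 libraries, 1 to 3 rose and 8 to 12 fell. The members with the smallest p were Fosl1, Fosb, Nr4a1 and Etv4. Fosb, an AP-1 subunit, fell to 0.252 and 0.447 CPM, against 26.3 and 38.7 CPM (-6.51 ± 0.76, adjusted p = 4.2e-05), and Fosl1, another AP-1 subunit, fell to 0.0917 and 0.149 CPM, against 4.75 and 7.83 CPM (-5.65 ± 0.39, adjusted p = 5.8e-06). Etv4, an ETS factor induced by ERK, fell to 0.0229 and 0.0213 CPM, against 0.769 and 1.08 CPM. The CXCR4-/- cultures averaged 0.476 CPM of Fosb, 0.0125 CPM of Fosl1 and 0.0482 CPM of Etv4, and the summed stromal markers moved in the same direction; their part in these falls was not tested. Nr4a1, an orphan nuclear receptor induced by antigen receptor signals, was also expressed in the CXCR4-/- cultures, at a mean of 30.5 CPM, and fell to 16.7 and 16.2 CPM, against 25.8 and 26.5 CPM (-0.67 ± 0.09, adjusted p = 0.00012). Dusp6, a phosphatase that switches ERK off, fell to 13.8 and 13.7 CPM, against 29.1 and 29.5 CPM (-1.10 ± 0.16, adjusted p = 0.00029). Egr1 stood at 8.05 and 7.57 CPM, against 23.1 and 32 CPM (-1.82 ± 0.46, adjusted p = 0.0095), and its call was lost without either library of IL-7 with CXCL12 (adjusted p = 0.051 and 0.062) and without replicate 2 of IL-7 alone (0.063). None of these 6 genes was called between IL-7 with CXCL12 and the ERK inhibitor cultures, where Dusp6 stood at 14.6 and 15.8 CPM and Egr1 at 7.05 and 7.65 CPM.

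Among 17 genes of V(D)J recombination and end joining, 3 rose and 4 fell, with a median of -0.08, and without any 1 of the 4 libraries 3 rose and 1 to 3 fell. Over all genes tested, 15.3% rose and 16.5% fell. The chromatin proteins Hmgb1 and Hmgb2, cofactors of the recombinase, rose to 1533 and 1498 CPM, against 68.2 and 66.9 CPM, and to 1528 and 1451 CPM, against 120.4 and 124 CPM, with log2 changes of 4.49 ± 0.11 and 3.60 ± 0.33. The ERK inhibitor cultures stood at 1354 and 1295 CPM of Hmgb1 and 1350 and 1346 CPM of Hmgb2, and Hmgb1 is one of the genes set apart. Hmgb2 met no rule for setting apart, but it was not called against the ERK inhibitor cultures either (0.14 ± 0.30, adjusted p = 0.86). Genes whose copies are not named after them can be missing from the near-identical class, and whether Hmgb2 is such a gene was not tested. Polm, a polymerase that fills in ends during light chain joining, fell to 9.93 and 10.1 CPM, against 20.5 and 18.2 CPM (-0.95 ± 0.13, adjusted p = 0.00012). It stood at 9.76 and 10.5 CPM in the ERK inhibitor cultures and was not called against them. Of the recombinase subunits, only Rag2 was called in this list, and Lig4, Prkdc and Dclre1c of the end-joining machinery fell, with log2 changes between -0.56 and -0.36. The call of Lig4 was lost without replicate 1 of IL-7 alone (adjusted p = 0.061), that of Prkdc without replicate 1 of IL-7 with CXCL12 or either library of IL-7 alone (0.065 to 0.12), and that of Dclre1c without any 1 of the 4 libraries (0.076 to 0.14).

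Receptor signalling genes of the pre-B cell were lower in 5 of 22 cases and higher in 2, with a median log2 change of -0.21, beside 16.5% lower and 15.3% higher among all genes tested. Without any 1 of the 4 libraries, 2 were lower and 0 or 1 higher, so the counts rest on all 4. Blk, a Src-family kinase of the B lineage, fell to 336 and 304 CPM, against 516 and 468 CPM (-0.62 ± 0.08, adjusted p = 7.4e-05). Both libraries with CXCL12 lay below both without it. Zap70 stood at 7.52 and 8.8 CPM, against 3.36 and 3.6 CPM, and Syk, the kinase of the pre-B receptor, at 690.4 and 667 CPM, against 961 and 916 CPM. In the ERK inhibitor cultures Blk stood at 378.5 and 384 CPM, Zap70 at 6.83 and 7.3 CPM and Syk at 749.5 and 774 CPM. None of these genes was called between IL-7 with CXCL12 and those cultures. The call of Zap70 (1.23 ± 0.30) was lost without replicate 2 of IL-7 with CXCL12 (adjusted p = 0.067) or replicate 1 of IL-7 alone (0.061), and that of Syk (-0.47 ± 0.14) without any 1 of the 4 (adjusted p of 0.067 to 0.13).

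Of 30 B-lineage transcription factors, 5 rose and 7 fell, with a median of -0.24, and without any 1 of the 4 libraries 3 or 4 rose and 3 to 6 fell. Over all genes tested, 15.3% rose and 16.5% fell. After Spib and Brwd1, the smallest p-values of the list belonged to Ikzf2 and Pou2af1. Ikzf2, a member of the Ikaros family, rose to 8.35 and 9.5 CPM, against 2.9 and 3.41 CPM (1.5 ± 0.19, adjusted p = 8.3e-05). Pou2af1, a coactivator of octamer-binding factors at immunoglobulin promoters, fell to 1038 and 997 CPM, against 1369 and 1349 CPM (-0.42 ± 0.07, adjusted p = 0.00067). Genes of late B-cell maturation split: 7 of 31 rose and 11 fell, with a median of 0.06, and without any 1 of the 4 libraries 5 to 7 rose and 7 to 9 fell. Cd83, an activation antigen, rose to 14.2 and 14.2 CPM, against 3.67 and 3.26 CPM (2.03 ± 0.13, adjusted p = 3.7e-07). H2-Ob, a modulator of peptide loading on class II molecules, fell to 107 and 101 CPM, against 205 and 182 CPM (-0.90 ± 0.10, adjusted p = 1.7e-05), and the ectoenzyme Cd38 fell to 47.7 and 47.4 CPM, against 76.1 and 76.7 CPM (-0.68 ± 0.08, adjusted p = 3.5e-05). Cd83 averaged 0.816 CPM in the CXCR4-/- cultures, whereas H2-Ob averaged 151 CPM there. In the ERK inhibitor cultures Ikzf2 stood at 11.6 and 10.3 CPM and Pou2af1 at 909 and 906 CPM. H2-Ob stood there at 113 and 116 CPM and Cd38 at 49.6 and 45.9 CPM. None of these genes was called between IL-7 with CXCL12 and those cultures. Cd83 stood there at 9.03 and 9.15 CPM and was called higher with both factors (0.64 ± 0.13).

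Interferon response genes rose far more often than they fell. Of 39 tested, 19 rose and 2 fell, with a median log2 change of 0.42, and without any 1 of the 4 libraries 9 to 12 rose and 1 or 2 fell. These genes are switched on by STAT and IRF factors, which bind 2 kinds of promoter element: the interferon-stimulated response element, searched here as GAAA, any 2 bases and GAAA, and the gamma-activated site, searched as TTC, any 3 bases and GAA, both on either strand. The 250 bases before the start site of 4 genes that rose, of which Gbp2 is set apart, are shown because their promoters hold such a match, which is in capitals (on the plus strand of the gene the response element can read as its reverse complement). The sequences are from RefSeq, build GRCm38.p6, and lie at chr11:53769764-53770013 on the plus strand for Irf1, chr3:142620413-142620662 on the plus strand for Gbp2, chr3:142559794-142560043 on the plus strand for Gbp3 and chr5:120777660-120777909 on the minus strand for Oas3; the counts were made on another build, mm9, and no coordinate of it is used.
Irf1: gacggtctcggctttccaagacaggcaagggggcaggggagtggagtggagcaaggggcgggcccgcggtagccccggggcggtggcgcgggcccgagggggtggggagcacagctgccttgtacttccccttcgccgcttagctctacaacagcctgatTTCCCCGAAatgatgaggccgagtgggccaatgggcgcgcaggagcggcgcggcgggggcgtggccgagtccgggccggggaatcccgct
Gbp2: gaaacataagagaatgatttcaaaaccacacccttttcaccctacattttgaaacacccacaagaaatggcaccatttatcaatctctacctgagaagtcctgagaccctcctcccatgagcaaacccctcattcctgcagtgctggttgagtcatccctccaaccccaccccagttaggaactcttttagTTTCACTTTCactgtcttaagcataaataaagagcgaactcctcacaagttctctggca
Gbp3: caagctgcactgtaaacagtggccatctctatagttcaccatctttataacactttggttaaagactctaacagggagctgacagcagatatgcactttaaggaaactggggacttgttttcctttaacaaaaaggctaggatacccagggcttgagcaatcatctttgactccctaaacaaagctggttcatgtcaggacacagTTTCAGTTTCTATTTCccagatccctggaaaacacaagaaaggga
Oas3: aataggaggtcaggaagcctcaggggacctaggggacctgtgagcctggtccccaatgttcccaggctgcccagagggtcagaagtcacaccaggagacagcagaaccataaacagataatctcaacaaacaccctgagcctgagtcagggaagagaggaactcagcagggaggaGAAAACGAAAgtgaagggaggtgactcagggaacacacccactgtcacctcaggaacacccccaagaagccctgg

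The match in Irf1 was a gamma-activated site that begins 90 bases before the start. Gbp2 and Oas3 held 1 response element each, beginning 59 and 75 bases before the start, and Gbp3 held 2 overlapping ones at 45 and 39 bases. Of 32851 RefSeq promoters of that length, 978 (2.98%) held the response element and 2306 (7.02%) the gamma-activated site. Of 36 promoters of 28 interferon list genes with a RefSeq entry, 11 (30.6%) held the first and 5 (13.9%) the second. The 11 belonged to Gbp2, Gbp3, Ifit1, Ifit3, Oas1a, Oas3 and Rsad2, which were called higher, and to Bst2, Isg15, Stat2 and Trim30a, which were not called. The calls of Ifit3 (adjusted p of 0.051 to 0.097) and Oas1a (0.071 to 0.33) were lost without any 1 of the 4 libraries, those of Ifit1 (0.086 to 0.18) without either library of IL-7 with CXCL12 or replicate 1 of IL-7 alone, and that of Rsad2 (0.056 to 0.12) without replicate 1 of IL-7 with CXCL12 or either library of IL-7 alone. A match describes the letters of the sequence and shows no binding.

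Irf1, an interferon-induced transcription factor, rose to 175 and 166 CPM with both factors, against 82.5 and 77.9 CPM with IL-7 alone (1.09 ± 0.07, adjusted p = 4.9e-07). Both libraries with CXCL12 were about equal and both stood above the pair without it. Gbp2 and Gbp3 encode interferon-induced GTPases, and Gbp2 belongs to the genes set apart, as a near-identical-copy and library-set gene. Gbp2 stood at 160.1 and 153 CPM, against 58.4 and 54 CPM (1.48 ± 0.11), and Gbp3 at 146 and 140.5 CPM, against 99.6 and 97.8 CPM (0.54 ± 0.10). The antiviral synthetase gene Oas3 and its relative Oasl2 were low in level but rose by 1.89 ± 0.36 (adjusted p = 0.0018) and 1.92 ± 0.24 (adjusted p = 6.7e-05) on the log2 scale. The exceptions were Mx2 and Dhx58, which fell, with log2 changes of -1.41 and -0.38; the call of Dhx58 was lost without replicate 2 of IL-7 with CXCL12 (adjusted p = 0.21) and without either library of IL-7 alone (0.22 and 0.082). The ERK inhibitor cultures, without IL-7, stood at 179.6 and 186 CPM of Irf1 and 14.6 and 15.7 CPM of Oas3, and within that set 0 of the 39 genes were higher with both factors and 6 were lower, beside 4.54% higher and 6.5% lower among all genes tested.

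**Figure D3:**
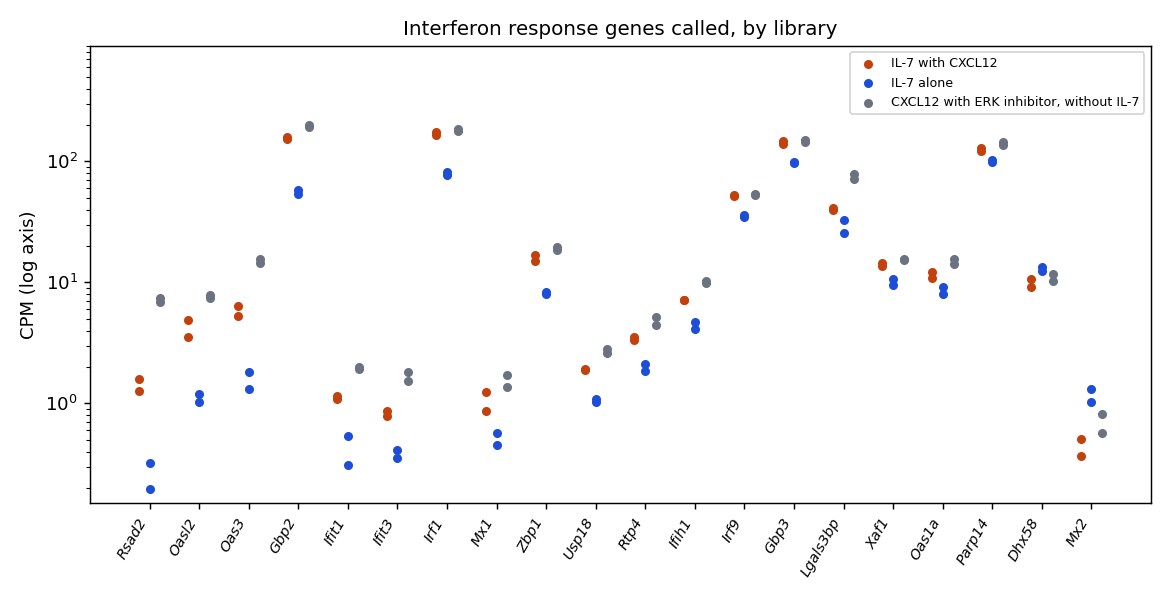
Level by library, in CPM on a log axis, of 20 of the 21 interferon response genes called, ordered by log2 change, for IL-7 with CXCL12, IL-7 alone, and CXCL12 with ERK inhibitor without IL-7. In the 18 genes to the left the points of IL-7 with CXCL12 lie above those of IL-7 alone, and the ERK inhibitor points lie at the same height or higher; Dhx58 and Mx2 at the right run the other way.

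More genes of G2 and M phase rose than fell. Of 56, 24 rose and 1 fell, with a median log2 change of 0.31. Without any 1 of the 4 libraries 7 to 9 rose and 1 fell. Ccnb1, the mitotic cyclin, is among the genes set apart, with a log2 change of 1.92. Kif2c, a kinesin that depolymerises microtubules, rose to 126 and 115 CPM, against 72.8 and 73.8 CPM (0.72 ± 0.10, adjusted p = 0.00012). The mitotic kinase Aurka rose to 128 and 118 CPM, against 76.5 and 76.6 CPM (0.68 ± 0.11, adjusted p = 0.00046), and the condensin subunit Ncapg to 249 and 254 CPM, against 179 and 177 CPM (0.50 ± 0.08, adjusted p = 0.0004). In all 3 the pairs were tight and did not overlap. The phosphatase gene Cdc25b was the exception that fell, at -0.60 ± 0.11. In the ERK inhibitor cultures Kif2c stood at 105 and 118 CPM, Aurka at 106 and 113 CPM and Ncapg at 227 and 222 CPM. None of these 3 genes was called between IL-7 with CXCL12 and those cultures. Of the 56 genes, 0 were higher with both factors than there and 1 was lower, with a median of 0.14. Among all genes tested, 4.54% were higher and 6.5% lower in that contrast. Of 46 S phase genes, 11 rose and 2 fell, with a median of 0.08, and 3 rose and 0 or 1 fell without any 1 of the 4 libraries. Mcm7 of the replicative helicase rose to 553 and 521 CPM, against 384 and 383 CPM (0.49 ± 0.08, adjusted p = 0.00052), and Ccne2, the cyclin of S phase entry, to 99.7 and 99.5 CPM, against 71.6 and 71.6 CPM (0.48 ± 0.09, adjusted p = 0.0012). Pcna, the replication clamp, belongs to the genes set apart, and the clamp loader gene Rfc5 (0.42 ± 0.11) lost its call without any 1 of the 4 libraries (adjusted p of 0.057 to 0.11). The proliferation marker Mki67 stood at 1761 and 2018 CPM, against 1771 and 1705 CPM, and was not called. Against the ERK inhibitor cultures, 12 of the 46 S phase genes were higher with both factors and 0 lower, with a median of 0.25.

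The D cyclins did not move together. Ccnd1 fell to 2.18 and 2.08 CPM, against 21.1 and 34.5 CPM (-3.70 ± 0.39, adjusted p = 2.0e-05), and it was at 0 to 0.154 CPM in the CXCR4-/- cultures. Ccnd2 and Ccnd3, the D cyclins of B-cell progenitors, had log2 changes of -0.24 and 0.22 and were not called. Ccnd3 belongs to the genes set apart, as a near-identical-copy gene.

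Of 41 genes of MYC and ribosome biogenesis, 17 rose and 1 fell, with a median log2 change of 0.25, and without any 1 of the 4 libraries 8 to 10 rose and 1 fell; outside near-identical-copy and library-set genes, 13 of 37 rose and 1 fell. Myc stood at 187 and 186 CPM, against 159 and 164 CPM, and just missed the threshold (0.21 ± 0.08, adjusted p = 0.057). Hspd1, a mitochondrial chaperonin, and Fbl, the methylase of ribosomal RNA, are set apart, at 1.89 and 3.70. Odc1, the rate-limiting enzyme of polyamine synthesis and a classical MYC target, rose to 353 and 336 CPM, against 109 and 113 CPM (1.63 ± 0.09, adjusted p = 7.9e-08). Nop56, a core protein of box C/D particles that modify ribosomal RNA, rose to 381 and 359.8 CPM, against 167 and 159.6 CPM (1.18 ± 0.09, adjusted p = 9.5e-07). Mxd4, an antagonist of MYC, was the 1 gene that fell, to 18.8 and 19.6 CPM, against 42.8 and 40.6 CPM (-1.12 ± 0.11, adjusted p = 1.1e-05). Against the ERK inhibitor cultures, 29 of the 41 were higher with both factors and 1 lower, with a median of 0.68. Among all genes tested, 4.54% were higher and 6.5% lower in that contrast. Myc stood at 73.4 and 72.4 CPM in the ERK inhibitor cultures (1.35 ± 0.08, adjusted p = 3.4e-06), Odc1 at 218 and 212 CPM (0.68 ± 0.09, adjusted p = 0.00045) and Nop56 at 228 and 235 CPM (0.68 ± 0.09, adjusted p = 0.00038). Odc1 and Nop56 were thus above both IL-7 alone and the ERK inhibitor cultures.

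Metabolic genes were mixed. Of 25 glycolysis genes 5 rose and 7 fell, with a median of -0.21; the rises of Gapdh, Pgk1 and Pgam1 belong to genes set apart, and of the 19 members outside them 2 rose and 7 fell. Pfkl, the liver form of phosphofructokinase, fell to 115 and 102 CPM, against 184 and 189 CPM (-0.78 ± 0.12, adjusted p = 0.00043), and the muscle form Pfkm also fell (-0.72 ± 0.11, adjusted p = 0.00036). Aldoc, an aldolase, fell to 4.77 and 5.06 CPM, against 21 and 16 CPM. Of 53 genes of oxidative phosphorylation, 10 rose and 0 fell, with a median of 0.05, and the 4 with the smallest p, Atp5l, Atp5g1, Cycs and Cox5b, are all set apart, at log2 changes of 6.91, 5.86, 5.36 and 1.88.

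FOXO targets and quiescence genes were lower in 10 of 26 cases and higher in 3, with a median of -0.28, and without any 1 of the 4 libraries 4 to 7 were lower and 2 or 3 higher. Pik3ip1, an inhibitor of PI3 kinase, fell to 26.9 and 27.4 CPM, against 61.1 and 53.9 CPM (-1.08 ± 0.11, adjusted p = 1.2e-05). Txnip, which limits glucose uptake, fell to 165 and 159.8 CPM, against 392 and 328 CPM (-1.15 ± 0.13, adjusted p = 2.7e-05). Btg1, an antiproliferative gene, rose instead, to 247 and 255 CPM, against 148 and 136 CPM (0.82 ± 0.10, adjusted p = 7.1e-05). Against the ERK inhibitor cultures, 0 of the 26 were higher with both factors and 8 lower, with a median of -0.27. Among all genes tested, 4.54% were higher and 6.5% lower in that contrast. Pik3ip1 stood at 40.1 and 37.6 CPM in the ERK inhibitor cultures (-0.52 ± 0.11, adjusted p = 0.0084). That call was lost without either library of IL-7 with CXCL12 or replicate 1 of the ERK inhibitor cultures. Of 24 p53 targets, 10 fell and 3 rose, with a median of -0.26, and without any 1 of the 4 libraries 7 to 9 fell and 1 or 2 rose. Zmat3, an RNA-binding p53 target, fell to 25.5 and 25.1 CPM, against 77.2 and 77.1 CPM (-1.61 ± 0.18, adjusted p = 2.7e-05), and the cell cycle inhibitor Cdkn1a to 98.7 and 100.3 CPM, against 135 and 139 CPM (-0.46 ± 0.08, adjusted p = 0.00096). The receptor gene Eda2r fell (-2.03 ± 0.25) and the death receptor gene Fas rose (1.38 ± 0.26). In Zmat3 and Cdkn1a the ERK inhibitor cultures stood near the libraries with both factors, at 19.8 and 19.2 CPM and 102 and 103 CPM. Of 17 BCL2 family genes tested, 3 rose, 4 fell and 10 were not called, beside 15.3% higher and 16.5% lower among all genes tested. The 3 rises were all of Bcl2a1 copies that are set apart. The 4 falls were of the pro-death members Pmaip1, Bbc3, Bmf and Bok. Pmaip1, which encodes the BH3-only protein Noxa, fell to 14.5 and 15.5 CPM, against 24.1 and 23.4 CPM (-0.66 ± 0.15, adjusted p = 0.0049). The call of Bok was lost without any 1 of the 4 libraries (adjusted p of 0.11 to 0.17), that of Bmf without either library of IL-7 with CXCL12 or replicate 1 of IL-7 alone (0.057 to 0.083), and that of Bbc3 without replicate 1 of IL-7 with CXCL12 or either library of IL-7 alone (0.05 to 0.082).

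Chemokine receptors and adhesion genes rose in 12 of 35 cases and fell in 6, with a median of 0.15, or -0.03 over the 33 outside near-identical-copy and library-set genes. Itgae, Ccr9 and Jam3 were among the 4 members with the smallest p, at 12.5 and 12.8 CPM against 0.308 and 0.151 CPM for Itgae, 3.72 and 4.49 CPM against 0.374 and 0.237 CPM for Ccr9 and 0.0459 and 0.085 CPM against 1.12 and 2.39 CPM for Jam3. Itgae is a library-set gene and Ccr9 one of the markers of other cells set apart. These integrin, chemokine receptor and junction genes were nearly silent in the CXCR4-/- cultures, at means of 0.0774, 0.0103 and 0.0125 CPM. Ccr2, a receptor of inflammatory monocytes, rose to 41.8 and 43.8 CPM, against 2.48 and 3.73 CPM, beside the rise of the summed myeloid markers, whose part in these values was not tested.

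**Figure D4:**
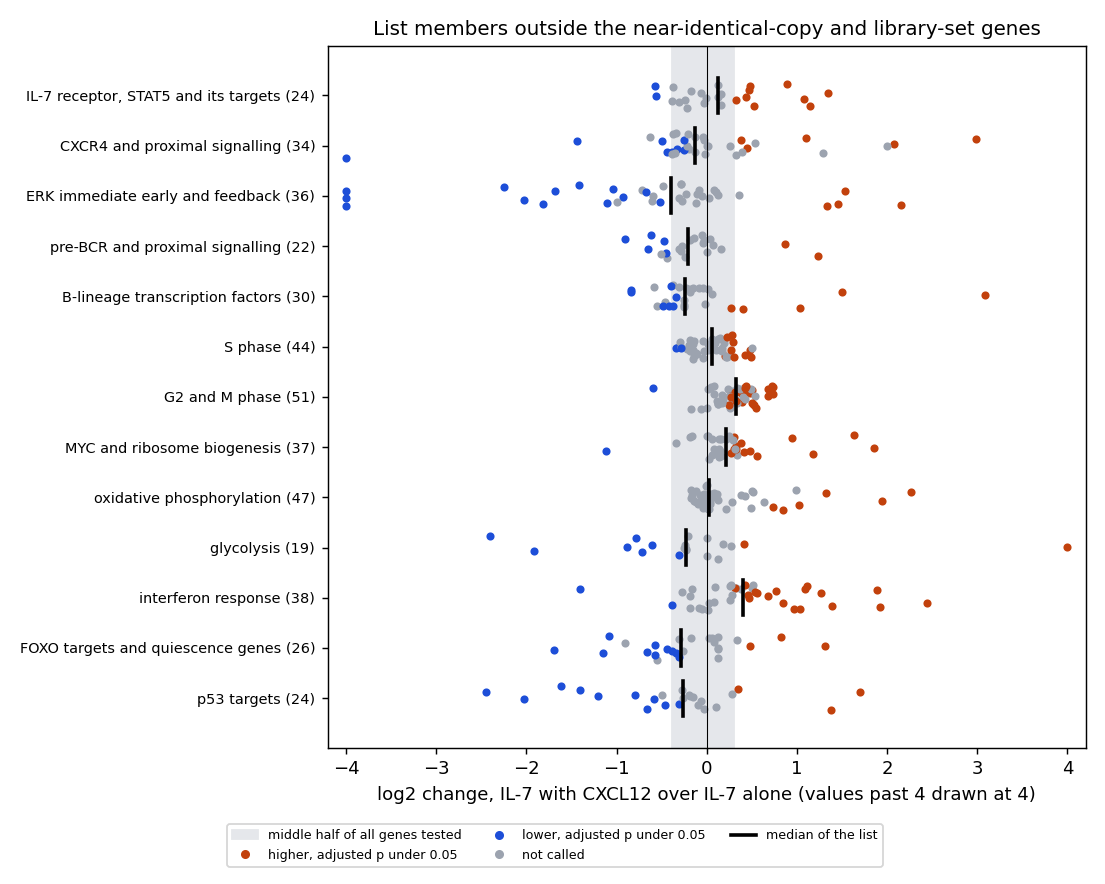
Log2 change, IL-7 with CXCL12 over IL-7 alone, of the members of 13 gene lists that are outside the near-identical-copy and library-set genes (1 point per gene; red, higher; blue, lower; grey, not called; black bar, median of the list). The grey band spans the quartiles of all 14862 genes, from -0.38 to 0.30; the medians of the G2 and M phase list (0.32) and the interferon list (0.40) lie past its upper edge and that of the ERK list (-0.40) past its lower edge.

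The leading genes were taken among those expressed at 10 CPM or more in the CXCR4-/- cultures and outside the near-identical-copy, immunoglobulin, other-cell and sex-linked classes; library-set genes were not left out. The 12 highest rises were H2afz, Ppp1cc, Stmn1, Nhp2l1, Hmgb2, Nudt21, Tufm, Eif4a1, Psma3, Fam103a1, Tma7 and Ahcy, with log2 changes between 2.99 and 4.63. They include a histone variant (H2afz), a microtubule regulator (Stmn1), the RNA helicase of translation initiation (Eif4a1) and a proteasome subunit (Psma3). H2afz stood at 612 and 671 CPM, against 27 and 24.6 CPM (4.63 ± 0.52, adjusted p = 2.7e-05), and at 587 and 556 CPM in the ERK inhibitor cultures. Stmn1 stood at 638 and 611 CPM, against 38.2 and 38.7 CPM, and at 559 and 561 CPM in the ERK inhibitor cultures. The other 10 behaved alike: 10 of the 12 met the rule for library-set genes, and none of the 12 was called between IL-7 with CXCL12 and the ERK inhibitor cultures, where the log2 differences ran from 0.02 to 0.45.

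The 12 steepest falls were Sorcs2, Atp2b2, Ankrd6, Tead1, Tmem132e, Ehd2, Slc15a2, Ptpn14, Nlrp3, Nov, Cacna1i and Chd3, with log2 changes between -3.48 and -1.74. Of these, Tmem132e met the rule for library-set genes. Sorcs2, a sorting receptor for neurotrophins in neurons, fell to 9.08 and 8.87 CPM, against 105 and 96.1 CPM (-3.48 ± 0.23, adjusted p = 3.6e-07). Atp2b2, a calcium pump of the plasma membrane, fell to 8.03 and 8.29 CPM, against 64.6 and 58.1 CPM (-2.91 ± 0.25, adjusted p = 1.4e-05). Both were evenly low with CXCL12 and evenly high without it. Tead1, a transcription factor of the Hippo pathway, fell to 10.3 and 10.1 CPM, against 50.8 and 58 CPM (-2.42 ± 0.12, adjusted p = 2.8e-08). Chd3, a chromatin remodeller of the NuRD complex, fell to 77.4 and 79.4 CPM, against 269 and 255 CPM (-1.74 ± 0.15, adjusted p = 3.0e-06). The inflammasome sensor Nlrp3 fell to 23.4 and 21.9 CPM, against 81.7 and 75.9 CPM (-1.80 ± 0.36, adjusted p = 0.0024). Within the set with high Gapdh only Tead1 of the 12 was called, where it was higher with both factors than in the ERK inhibitor cultures (0.87 ± 0.12, adjusted p = 0.00059), and the rest had log2 differences between -0.53 and 0.83.

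The same chemokine was also added in cultures without IL-7, and a test of the difference between both changes asks whether IL-7 alters the response. In that test 2555 genes were higher with IL-7 (17.2%) and 3057 lower (20.6%). The libraries with IL-7 and CXCL12 are the only ones of the 4 groups in the set with high Gapdh, so the difference and the set cannot be told apart, and list members with near-identical copies or of the library set are left out of the next values. Genes of S phase had a median log2 change of 0.06 with IL-7 and of -1.62 without IL-7 over 44 genes. With IL-7, 25 of the 44 lay above 0, and without it 0 did, and the difference was called higher for 41 and lower for 0. Genes of G2 and M phase had a median of 0.32 with IL-7 and -1.43 without it, with 48 of 51 above 0 in the first case and 0 of 51 in the second, and 49 differences were called higher and 0 lower. Kif2c stood at 34.8 and 31.7 CPM without IL-7 with CXCL12, against 89.3 and 87.7 CPM without both, and the difference between both changes was 2.13 ± 0.14 (adjusted p = 3.2e-07). MYC and ribosome biogenesis genes had medians of 0.21 with IL-7 and -0.33 without it over 37 genes, and Myc itself stood at 27.7 and 25.2 CPM, against 84.1 and 84.5 CPM, in the cultures without IL-7 (difference 1.88 ± 0.11, adjusted p = 1.5e-07).

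**Figure D5:**
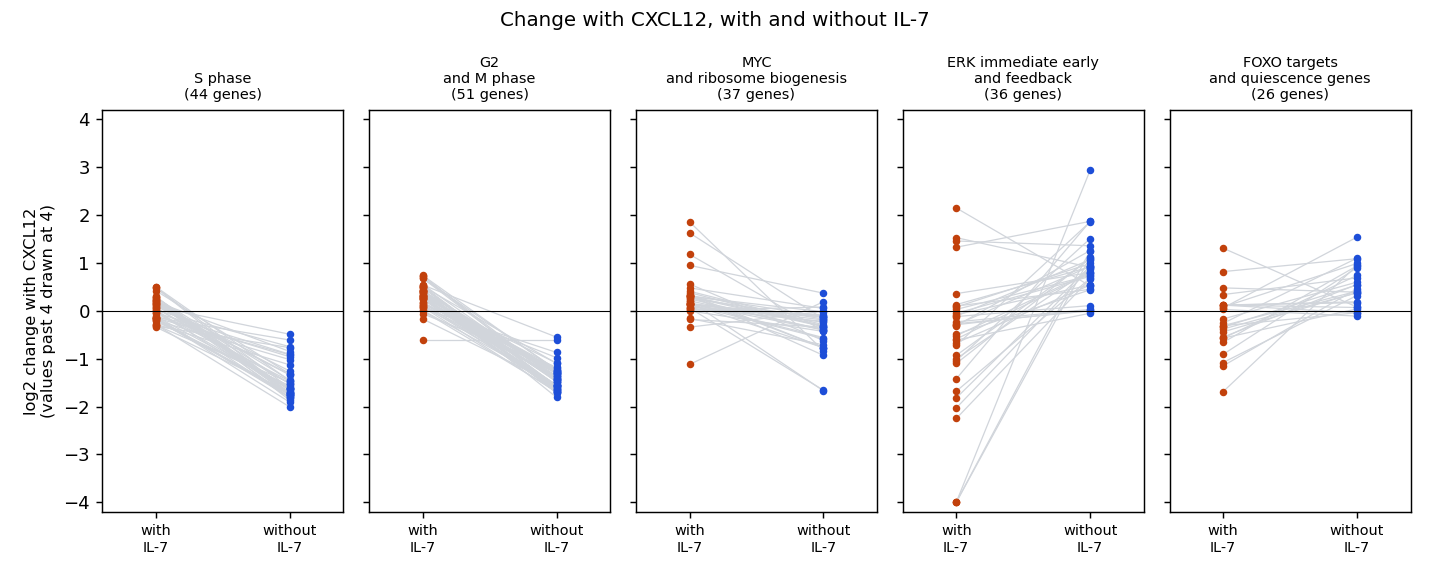
Log2 change with CXCL12 in the presence of IL-7 (left) and without IL-7 (right) for the members of 5 gene lists outside the near-identical-copy and library-set genes (1 line per gene). Lines of the S phase and G2 and M phase lists run down from near or above 0 to below 0, those of the ERK and FOXO lists mostly run up, and the MYC list shows a shallow downward slope.

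Genes of the ERK response ran the other way. They had a median of -0.40 with IL-7, when 9 of 36 lay above 0, and 0.88 without IL-7, when 34 of 36 did, and the difference was called lower for 20 and higher for 0. In cultures without IL-7, Dusp6 stood with CXCL12 at 112 and 109.8 CPM, against 51.8 and 51.6 CPM, and the difference between both changes was -2.20 ± 0.23 (adjusted p = 1.4e-05). Egr1 stood at 88.1 and 86.5 CPM, against 46.4 and 45 CPM, there (difference -2.75 ± 0.64, adjusted p = 0.0046). Stromal and endothelial markers ran the same way as the ERK list, with medians of -4.13 with IL-7 and 1.22 without it. Without IL-7 their sums were 5958 and 5840 CPM with CXCL12, against 2516 and 2474 CPM. Their part in the values of the ERK list was not tested. NF-kB subunits and targets had medians of -0.13 with IL-7 and 0.98 without it, and FOXO targets -0.28 and 0.43. Among the regulators, Spib and Brwd1, which fell with IL-7, stood without IL-7 at 1839 and 1777 CPM with CXCL12, against 992 and 970.2 CPM, for Spib and 56.1 and 56.6 CPM, against 22.3 and 24.2 CPM, for Brwd1, and the differences were -1.72 ± 0.12 (adjusted p = 4.7e-07) and -2.11 ± 0.15 (adjusted p = 5.9e-07). Il2ra showed the same opposition, at 95 and 93.2 CPM, against 29.5 and 30.8 CPM, without IL-7 (difference -2.20 ± 0.14, adjusted p = 3.0e-07). Cish, which rose with IL-7, stood without IL-7 at 4.79 and 4.29 CPM with CXCL12, against 30.0 and 28.9 CPM without it (difference 3.16 ± 0.14, adjusted p = 2.9e-08). The difference for Rag2 was not called, at 0.15 ± 0.11 (adjusted p = 0.33), and that for Rag1 was negative (-1.35 ± 0.35, adjusted p = 0.0092). Over all genes tested the median change was -0.03 with IL-7 and 0.09 without it.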

How the data were processed

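RNA was taken from flow-sorted B cells and made into polyadenylated, stranded libraries, per the labels' protocols. The values were deposited by the authors as raw read counts per gene symbol in 1 table of 23762 genes. The submitters' processing notes name the mm9 build and the tools featureCounts, STAR, BWA, MACS2, Picard and bedtools; which tool did what, tool versions, gene annotation and strand handling are not given in the sources used here, so counts of overlapping, antisense and duplicated genes are uncertain. All its columns belong to samples (0 do not). For pseudogene names, 23613 symbols (99.4%) were found in a RefSeq table. Of the genes in the count table, 351 had a pseudogene named after them. Genes whose copies carry other names can be missing from the near-identical class.

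Counts of all 18 RNA libraries in 9 groups were fitted in 1 model, 1 mean per group, with edgeR 4.0.16 (R 4.3.3), TMM scaling, the default low-count filter and the robust quasi-likelihood test, so that all groups share 1 estimate of the spread. Contrasts were IL-7 with CXCL12 minus IL-7 alone, the difference of that change from the change without IL-7, and IL-7 with CXCL12 minus CXCL12 with ERK inhibitor. Calls had a Benjamini-Hochberg adjusted p under 0.05 over all 14862 genes tested. SEs were obtained as |log2 change| divided by the root of the F statistic. CPM values use TMM-scaled totals; library totals ran from 17257914 to 50235192 counts, which limits precision.

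The comparison, gene lists and named genes were chosen with earlier results of these data known. Named were 25 regulators, the 12 highest rises and 12 steepest falls with a mean log2 CPM of 3 or more, at least 10 CPM in the CXCR4-/- cultures and in none of the first 4 classes set apart (library-set genes were kept), the 6 highest and 6 lowest of all at that level, and up to 4 members of smallest p per list. Gapdh, Socs2, Cdc25b, Ccr2, Mxd4, Pfkl, Pfkm, Lig4, Prkdc, Dclre1c, Bok, the interferon genes other than Irf1, Gbp2 and Oasl2, and the values of Kif2c, Odc1, Nop56, Pik3ip1, Socs2 and Rps29 in the other contrasts, are outside the rule and were chosen after their values were seen. Set apart were genes with near-identical copies (ribosomal proteins, Gapdh and genes with a named pseudogene), immunoglobulin segments, markers of other cells and sex-linked genes (the first 4 classes), and, after the data were seen, library-set genes, at least 2-fold higher or lower in both ERK inhibitor libraries than in all 12 libraries outside (pseudocount 0.5). Replicate numbers did not pair the libraries. The ATAC-seq samples were not used here, and some genes that the rule names are not reported here. Alternatives were RLE scaling, other filters, DESeq2 1.42.0, fewer groups, a replicate block, a 2-fold test, classes left out, and each library left out.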

Additional observations from a re-analysis of the deposited data

Results flagged for a closer look

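The change with CXCL12 differed between cultures with and without IL-7 for 5612 genes, and for 39 of 49 regulators and leading genes tested (17 of 25 regulators). Over all genes tested, the difference was higher with IL-7 for 17.2% and lower for 20.6%. The leading genes were picked by their change with IL-7, which is part of the difference tested. Their calls and signs are thus partly fixed by that choice and do not test whether IL-7 alters the response. What marked each result is the edgeR test of the difference itself, given as a log2 difference, with IL-7 minus without IL-7. The libraries with IL-7 and CXCL12 stand in another set of libraries (high Gapdh and Xist) than the 3 other groups, so the difference and the set cannot be told apart. Groups of 2 libraries allow no test for a single deviating sample.

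Among regulators the difference was positive for Cish (3.16), Myc (1.88), Ccnd3 (1.52, a near-identical-copy gene set apart), Mki67 (1.49) and Ccnd2 (0.73). It was negative for Ccnd1 (-4.93), Egr1 (-2.75), Il2ra (-2.2), Dusp6 (-2.2), Brwd1 (-2.11), Spib (-1.72), Bcl6 (-1.47), Rag1 (-1.35), Ikzf3 (-1.29), Irf4 (-1.16), Foxo1 (-0.88) and Irf8 (-0.55). Among the leading rises it was positive for Stmn1 (5.81), H2afz (5.73), Hmgb2 (5.13), Nhp2l1 (4.51), Ahcy (4.37), Nudt21 (4.29), Ppp1cc (4.11), Eif4a1 (3.52), Tufm (3.5), Psma3 (3.42), Tma7 (3.39) and Fam103a1 (3.27). Among the leading falls it was negative for Tead1 (-3.41), Sorcs2 (-3.01), Slc15a2 (-2.84), Ankrd6 (-2.73), Nlrp3 (-2.52), Tmem132e (-2.49), Ehd2 (-2.18), Ptpn14 (-2.11), Chd3 (-2.07) and Atp2b2 (-1.08). Nov and Cacna1i, also among the leading falls, gave no call.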

How the results depend on the processing

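The count of 4720 calls moved to 8238 with only the groups compared and to 1574 when a change of at least 2-fold was tested, and to 3055 to 3168 with 1 of the 4 libraries left out. It stayed within 1.5 times under RLE scaling (4745), no filter (4456), a minimum of 1 CPM (4477), DESeq2 (5220), near-identical copies left out (4543), all classes left out (3998) and close pairs summed (3625). The count for the difference with and without IL-7 (5612) moved to 10079, 1992 and 3299 with only the groups compared, the 2-fold test and close pairs summed, and ran from 4250 to 4530 with 1 library left out. The count against the ERK inhibitor cultures (1640) moved to 6068, 121 and 926 under the same settings and ran from 655 to 720 with 1 library left out; each such fit has 1 lone library, taken to vary as the other groups do. Close pairs are the 2 libraries without IL-7 alone and the 2 without IL-7 with CXCL12, each pair summed to 1 library. Within these pairs the chi-square per gene was 1.48 and 1.34. It was 7.93 for IL-7 alone, 12.2 for IL-7 with CXCL12 and 5.94 for the ERK inhibitor cultures. The widest pairs were the CXCR4-/- cultures without both factors, at 265, and the sorted CXCR4-/- cells, at 44.7. The close and the widest pairs all enter the shared estimate of the spread, and the labels do not state whether the close pairs are technical repeats. The causes of these moves were not tested.

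With a replicate block the 3 counts were 4607, 5524 and 1536. Deviations of equal numbers correlated at -0.02 (IL-7 with CXCL12 and IL-7 alone), so the numbers name libraries only; against the ERK inhibitor cultures they did at -0.33, and crossed numbers gave 1561 calls.

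Log2 changes of 244 genes under 16 settings kept direction and call in 3373 of 3649 cases, lost the call in 237, gained it in 35 and turned sign in 4, none of them called: with 1 library left out, Cd79a ran from -0.07 to 0.09, Isg15 from -0.02 to 0.74 and Mki67 from -0.02 to 0.16. Against the ERK inhibitor cultures, uncalled values turned to -0.02 for Vpreb1 and Fam103a1 under RLE scaling and DESeq2, to -0.01 for both with only the groups compared, and with 1 library left out ran from -0.02 to 0.11 for Vpreb1, -0.06 to 0.09 for Fam103a1, -0.06 to 0.04 for Cpne5 and -0.28 to 0.08 for Atp2b2. Genes under 1 CPM rest on few reads per library, and a call on a change of less than 2-fold cannot hold under the 2-fold test.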

Other observations

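Further gene lists are given beside the 31.8% of all genes that were called, each also without its near-identical-copy and library-set members. Of 23 genes of cholesterol synthesis and uptake, 4 rose and 1 fell with CXCL12, with a median log2 change of 0.12; outside such members 3 of 22 rose and 1 fell. Of 19 enzymes of serine, glycine and one-carbon metabolism, 4 rose and 1 fell, with a median of 0.09; outside such members 1 of 16 rose and 1 fell, with a median of -0.03. Of 30 genes of the ATF4, amino acid and unfolded protein stress responses, 5 rose and 1 fell, with a median of -0.07 (4 of 29 and 1 outside such members), and without any 1 of the 4 libraries 1 rose and 0 fell. Lymphotoxin, TNF and cytokine ligand genes rose in 6 of 20 cases and fell in 3, with a median of 0.47, and fell in 1 case without replicate 2 of IL-7 alone; outside such members 2 of 16 rose and 3 fell, with a median of 0.18. Dissociation and heat-shock genes rose in 5 of 10 cases and fell in 1, with a median of 0.56; outside such members 2 of 7 rose and 1 fell, with a median of 0.09. The list had summed levels of 5206 and 4945 CPM with both factors, against 1052 and 1074 CPM with IL-7 alone, and 3575 and 3580 CPM in the ERK inhibitor cultures.

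Of 13820 genes tested outside the classes set apart, 153 were called higher with both factors than in IL-7 alone and also than in the ERK inhibitor cultures. Lower than in both were 305, which are not described here. The ERK inhibitor cultures share the set of libraries but had no IL-7, so IL-7 and CXCL12 cannot be told apart against them. The rises below were chosen after their values were seen. Ddx18, an RNA helicase of ribosome assembly, stood at 132 and 132 CPM with both factors, against 41.2 and 41.5 CPM with IL-7 alone and 85.4 and 86.3 CPM in the ERK inhibitor cultures. Pnp, an enzyme of purine salvage, stood at 459.7 and 416 CPM, against 229 and 228 CPM and 255 and 254 CPM. Sema7a, a membrane-anchored semaphorin, stood at 78.3 and 76.5 CPM, against 45.5 and 48.2 CPM and 22 and 22.1 CPM, and its call against IL-7 alone was lost without any 1 of the 4 libraries (adjusted p of 0.091 to 0.13 by edgeR). Bhlha15, a transcription factor of secretory cells, stood at 24.9 and 20.3 CPM, against 12.5 and 13.5 CPM and 7.69 and 8.78 CPM. In each gene both libraries with both factors lay above the 4 others.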
